A study of Mus musculus with 9 samples.

Results

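Nuclear receptors and the coregulators that bind them were followed through colon organoids with and without the aryl hydrocarbon receptor (AHR). The 36 genes, 31 receptors and 5 coregulators, were chosen by name as members of this family and found by their Ensembl identifiers among the 48795 genes of the deposited table. Colon organoids are hollow epithelial structures that grow in a gel from isolated crypts of the mouse colon. Per the labels and methods of the study, AHR KO organoids came from Vil-Cre Ahr fl/fl mice, in which a Cre driven by the Villin promoter deletes a floxed Ahr allele in intestinal epithelium, and WT organoids kept the gene. The mouse lines are described as being on a C57BL/6 background, and the age of the donors is not given in the sources used here. All cultures were in WENR, a medium with Wnt3a that holds the organoids in a regenerative, stem-cell state, and were treated for 4 h with 5 nM FICZ, a high-affinity AHR ligand, or with its solvent, DMSO. For WT there were 2 DMSO libraries (replicates 2 and 3) and 3 FICZ libraries (replicates 1, 2 and 3), and for AHR KO there were 2 libraries with each treatment (replicates 1 and 3). The methods call the organoids biological replicates, but the labels do not tie a number to an animal, so p-values measure the spread between these cultures.

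Nuclear receptors are transcription factors that bind DNA directly and, in most cases, change their activity when a small lipophilic molecule enters their ligand pocket. RXR proteins pair with many of the others, among them the retinoic acid, vitamin D, thyroid hormone, PPAR, LXR, FXR and PXR receptors. Corepressors such as NCOR1 hold target genes down in the absence of ligand and coactivators of the NCOA family replace them when ligand binds. In the intestine these receptors are known for sensing retinoids, vitamin D, fatty acids, bile acids and xenobiotics. AHR also senses xenobiotics but is a bHLH-PAS protein and not a nuclear receptor.

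The deposited normalised counts of a library summed to 23177058 at the lowest and 25033827 at the highest. Of the 36 members, 32 averaged at least 10 across the 9 libraries and were tested among 12741 genes. The labels were checked first on AHR target genes. Cyp1b1 read 1078 and 1632 in WT DMSO and 25.4 and 34.5 in AHR KO DMSO, so the genotypes separated as labelled, whereas the gene-level value of Ahr itself was higher in AHR KO (1346 to 1443) than in WT (783 to 858). The table does not resolve exons, so the deleted part of Ahr could not be checked. Cyp1a1 still reached 100 and 139 in AHR KO FICZ, against 6987 to 7958 in WT FICZ and at most 5.84 in the DMSO libraries. The 8 epithelial markers summed to between 315800 and 345200 in every library. All 6 fibroblast, all 3 smooth muscle, all 3 glial and 2 of 3 endothelial markers read 5 or less in every library, and of 6 immune markers only Cd68 exceeded 5, and that list summed to 475 to 712. These are bulk samples, in which fewer cells of a type and less RNA per cell cannot be told apart.

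Levels between genes were compared as normalised count per kb of exon in WT DMSO. The corepressor Ncor1 was the highest member at 660 ± 7.09 per kb (SD, n = 2), followed by the fatty acid receptors Pparg at 534 and Ppard at 326 per kb. Next came Nr1h2 (LXR-beta, an oxysterol receptor) at 289, Nr3c1 (the glucocorticoid receptor) at 288 and Nr2f6 at 280 per kb. Their libraries overlapped from each gene to the next, so these genes could not be ranked. Esrra stood at 239 and Rarg, the most abundant retinoic acid receptor here, at 219 per kb. Nr2f6 and Esrra are orphan receptors with no settled natural ligand. The neighbours Rarg, Nrip1 (216), Nr1h4 (200) and Ncoa3 (180) overlapped from each one to the next. The bile acid receptor Nr1h4 (FXR) therefore stood well above Nr1i2 (PXR, the xenobiotic receptor) at 42.2 per kb. The lowest tested members were Thrb at 8.88, Nr1h3 (LXR-alpha) at 4.90 and Esr1 (oestrogen receptor alpha) at 3.71 per kb.

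**Figure D1:**
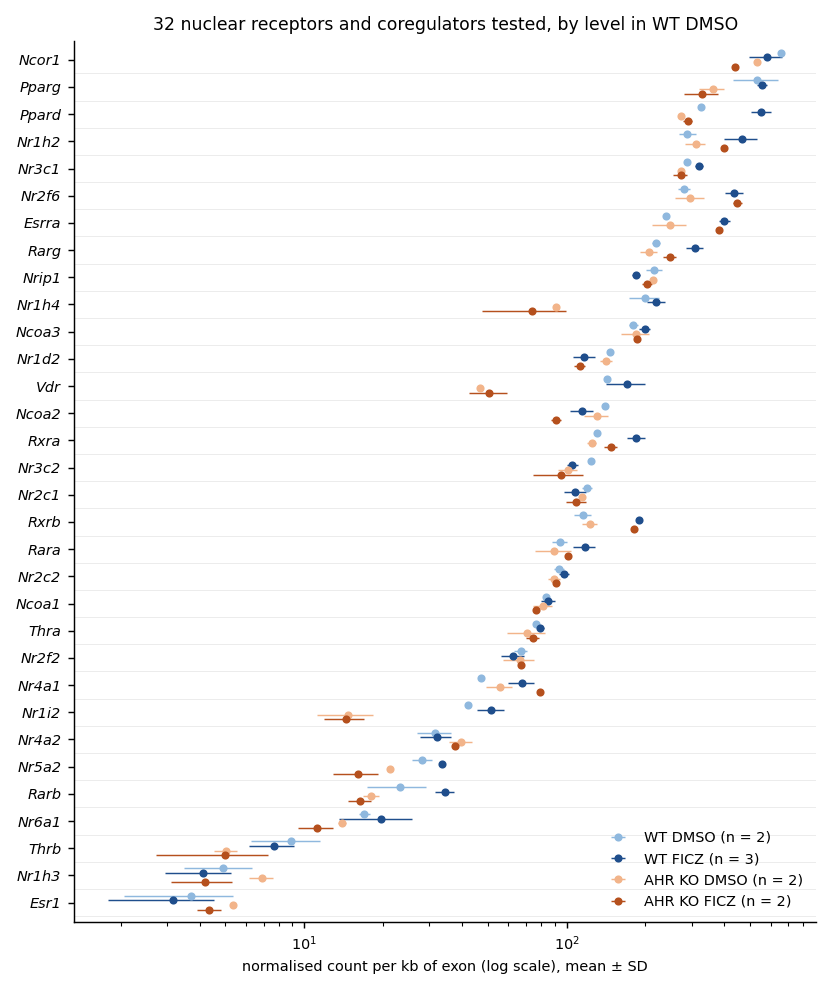
Normalised count per kb of exon (log axis) of the 32 tested members, ordered by their level in WT DMSO, with points for the mean and bars for the SD of each group. Vdr, Nr1h4 and Nr1i2 stand apart from their WT values in both AHR KO groups, and Ppard is highest in WT FICZ.

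The 4 members under the filter were Ppara, Rora, Nr1i3 and Nr0b2. Ppara read 2.80 to 25.4 and Rora, a clock-linked orphan receptor, 3.70 to 24.6, each with 1 library far above its partner. Nr1i3 (CAR) did not exceed 5.53, and 74.9% of its exon bases overlap Tomm40l on the other strand. Nr0b2 (SHP), a corepressor-like receptor that FXR induces in liver, was listed at 0 in all 9 libraries. Other members share exon bases with a gene on the opposite strand: 54.4% of Nr2f6 with Ocel1, 34.1% of Rarb with Top2b, 30.7% of Nr2c2 with Mrps25, 7.5% of Nr2f2 with B130024G19Rik and 5.7% of Thra with Nr1d1, and less than that for the others. The libraries were stranded, but whether strand was used in counting is not stated, so the values of these genes are uncertain to that extent.

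Promoter windows of 300 bases, from 250 before to 50 after a RefSeq start site (GRCm38.p6; the submitters' notes name the build GRCm38), are shown for Ppard, the member whose response to FICZ differed between genotypes, and for Vdr, Nr1h4 and Nr1i2, the members with the largest difference between AHR KO and WT under FICZ. The Ppard window is chr17:28232504-28232803 on the plus strand, and the others are chr15:97908247-97908546, chr10:89506609-89506908 and chr16:38294775-38295074 on the minus strand. Sequences run 5′ to 3′ along the gene, and capitals mark GCGTG, the core of the motif that AHR binds together with ARNT, searched on both strands (GCGTG and CACGC).
Ppard: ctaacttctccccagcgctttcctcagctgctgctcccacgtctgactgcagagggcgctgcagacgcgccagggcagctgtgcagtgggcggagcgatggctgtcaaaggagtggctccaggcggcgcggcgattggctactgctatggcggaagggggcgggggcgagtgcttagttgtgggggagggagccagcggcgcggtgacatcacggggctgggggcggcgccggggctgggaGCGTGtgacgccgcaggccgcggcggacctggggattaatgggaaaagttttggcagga
Vdr: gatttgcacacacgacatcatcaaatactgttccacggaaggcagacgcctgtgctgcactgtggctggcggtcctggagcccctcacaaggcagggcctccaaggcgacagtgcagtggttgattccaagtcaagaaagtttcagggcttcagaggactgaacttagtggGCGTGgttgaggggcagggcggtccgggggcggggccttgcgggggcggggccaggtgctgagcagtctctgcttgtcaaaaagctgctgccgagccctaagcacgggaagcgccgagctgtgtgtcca
Nr1h4: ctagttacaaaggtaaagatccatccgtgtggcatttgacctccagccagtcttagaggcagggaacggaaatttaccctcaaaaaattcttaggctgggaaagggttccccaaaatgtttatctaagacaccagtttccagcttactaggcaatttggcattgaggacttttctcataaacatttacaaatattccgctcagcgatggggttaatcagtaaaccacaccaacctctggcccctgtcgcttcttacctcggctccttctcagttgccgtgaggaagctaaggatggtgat
Nr1i2: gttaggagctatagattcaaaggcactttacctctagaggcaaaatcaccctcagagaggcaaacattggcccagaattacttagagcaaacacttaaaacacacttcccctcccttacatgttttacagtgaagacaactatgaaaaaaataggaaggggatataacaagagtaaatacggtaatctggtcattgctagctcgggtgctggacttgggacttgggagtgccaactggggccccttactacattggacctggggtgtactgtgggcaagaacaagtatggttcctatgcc
The Ppard window held 1 core, starting 9 bases before the start site, and the Vdr window held 1, starting 79 bases before it. The windows of Nr1h4 and Nr1i2 held none. Among 32 members with at least 1 window, 24 (75.0%) held the core in any window, beside 35.2% of all 27025 genes with one. Counted by window, it stood in 26 of 47 member windows (55.3%) and in 32.4% of all 32851. The genes set beside the members were not matched to them in expression, base content or number of windows. The shares were not tested. No window was found for Ncoa2, Ncoa3, Nr3c1 and Thra. A match is a description of the letters and not a binding site, and it was seen in 7 of the 9 members that rose with FICZ in WT and also in members that did not rise.

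To ask which members respond to an AHR ligand, FICZ was compared with DMSO in WT organoids. Of the 32 tested members, 9 rose and 3 fell, while 15.1% of all tested genes rose and 15.7% fell. Without WT DMSO 2 the count was 7, all of them higher, and 15.6% of all genes were called in either direction. In the fit to all libraries, the 9 that rose were all receptors, namely Rxra, Rxrb, Rarb, Rarg, Ppard, Esrra, Nr1h2, Nr2f6 and Nr4a1. The receptor Nr1d2 and the coregulators Ncoa2 and Nrip1 fell. The median log2 change was 0.14 over the members and -0.01 over all genes tested. A gene was called at an adjusted p under 0.05 by limma, with p-values adjusted over all 12741 genes.

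**Figure D2:**
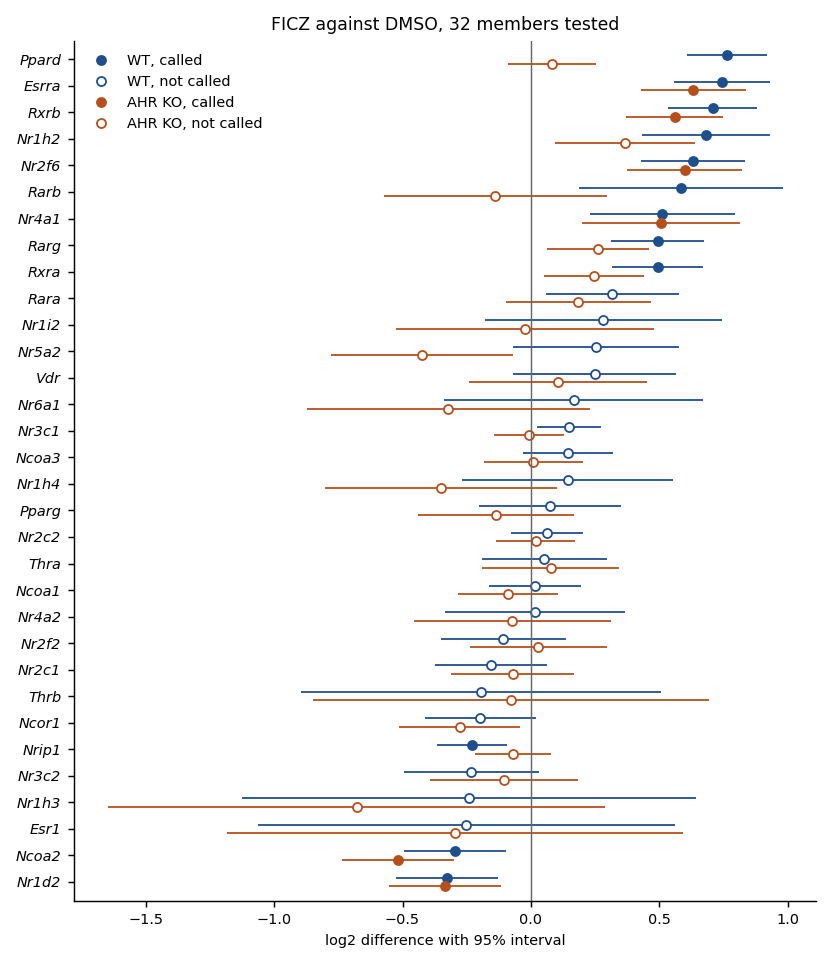
Log2 change with FICZ and its 95% interval for the 32 tested members in WT (blue) and AHR KO (brown), with filled points for called changes. Ppard is the member with the largest change in WT, where its interval runs from 0.61 to 0.92, and in AHR KO its interval runs from -0.09 to 0.25.

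The largest change in WT was that of Ppard (PPAR-delta), a fatty acid receptor expressed throughout the gut. It read 2400 and 2492 in WT DMSO and 3762, 4293 and 4427 in WT FICZ, a log2 change of 0.76 ± 0.07 (SE, adjusted p = 0.000162). In AHR KO it read 2032 and 2088 with DMSO and 2124 and 2242 with FICZ, a log2 change of 0.08 (95% interval -0.09 to 0.25, adjusted p = 0.484). All 3 WT FICZ libraries lay above every other library, and the AHR KO libraries lay below those of WT DMSO. The difference between the responses was 0.68 on the log2 scale (95% interval 0.45 to 0.91, adjusted p = 0.0206). Ppard was the only member of 32 with a called difference between responses, where 0.377% of all genes had a larger and 0.0706% a smaller log2 change in WT than in AHR KO at this threshold. Without adjustment, 3 members had p under 0.05, Ppard, Rarb and Nr5a2, each with the higher change in WT, beside 3.8% of all genes in that direction and 3.67% in the other. The call for Ppard was sensitive to single libraries: the adjusted p was 0.0979 and 0.0718 without WT DMSO 2 or 3, 0.14 and 0.106 without AHR KO DMSO 1 or 3, 0.066 without WT FICZ 3, and 0.0681 and 0.0513 without AHR KO FICZ 1 or 3. The log2 difference itself stayed between 0.64 and 0.72 in these fits.

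Rxra and Rxrb, the retinoid X receptors that serve as shared partners of the family, rose in WT. Rxra read 703 and 721 in WT DMSO and 928, 999 and 1087 in WT FICZ, a log2 change of 0.49 ± 0.08 (SE, adjusted p = 0.00172). Its AHR KO libraries moved from 661 and 701 to 775 and 839, and that change of 0.24 was not called (adjusted p = 0.0773). Rxrb went from 434 and 481 to 728, 757 and 759 in WT, a log2 change of 0.71 ± 0.08 (adjusted p = 0.0003). In AHR KO it went from 466 and 512 to 707 and 733, a rise of 0.56 (adjusted p = 0.00317). The FICZ libraries of Rxrb were above the DMSO libraries in each genotype without overlap, and its difference between the responses was 0.15 (95% interval -0.11 to 0.41).

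Of the retinoic acid receptors, Rarg and Rarb were called in WT. Rarg went from 911 and 957 to 1221, 1311 and 1420, a log2 change of 0.49 ± 0.08 (adjusted p = 0.00181). In AHR KO Rarg went from 835 and 925 to 1009 and 1099, a change of 0.26 that was not called (adjusted p = 0.0644). Rarb, itself a classical retinoic acid target, read 100 and 144 in WT DMSO and 164, 189 and 191 in WT FICZ. Its rise of 0.58 ± 0.18 (adjusted p = 0.0312) depended on single libraries, with an adjusted p of 0.271 without WT DMSO 2, 0.084 without WT FICZ 1 and 0.083 without WT FICZ 3. In AHR KO, Rarb was 89.8 and 99.4 with DMSO and 79.7 and 92.3 with FICZ, so the groups overlapped. Rara, the third of these receptors, read 391 and 430 in WT DMSO and 462, 516 and 561 in WT FICZ, which did not pass the test (log2 change 0.32, adjusted p = 0.0635).

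Esrra, Nr2f6, Nr1h2 and Nr4a1 complete the members that rose in WT. Esrra (ERR-alpha), an orphan receptor that drives mitochondrial gene expression, went from 1028 and 1065 to 1658, 1781 and 1822, a log2 change of 0.74 ± 0.08 (adjusted p = 0.000336). It rose by 0.63 in AHR KO too (adjusted p = 0.00262), from 978 and 1202 to 1672 and 1689. Nr2f6, an orphan receptor of the COUP-TF group that mostly represses, went from 805 and 867 to 1182, 1330 and 1380 in WT and from 808 and 963 to 1298 and 1374 in AHR KO. Its changes were 0.63 and 0.60 (adjusted p = 0.00101 and 0.00442). Nr1h2 read 920 and 1021 in WT DMSO and 1321, 1606 and 1770 in WT FICZ, a change of 0.68 (adjusted p = 0.00183). The corresponding change of 0.37 in AHR KO was not called (adjusted p = 0.0619), although both FICZ libraries (1318 and 1366) lay above both DMSO libraries (979 and 1108). Nr4a1, an orphan receptor and immediate early gene, rose by 0.51 in each genotype (adjusted p = 0.013 in WT and 0.0305 in AHR KO), from 163 and 168 to 214, 230 and 267 in WT and from 180 and 212 to 275 and 279 in AHR KO. The WT call of Nr4a1 was lost without WT DMSO 2 or 3 (adjusted p = 0.0613 and 0.071), and the AHR KO call without AHR KO DMSO 1, AHR KO FICZ 1 or AHR KO FICZ 3 (0.21, 0.0969 and 0.103). The AHR KO call of Nr2f6 was lost without AHR KO DMSO 1 (adjusted p = 0.0526).

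The 3 members that fell did so by less. Nr1d2 (REV-ERB-beta), a haem-binding repressor of the clock, went from 781 and 804 to 572, 630 and 697 in WT, a log2 change of -0.33 (adjusted p = 0.02). In AHR KO it changed by -0.34 (adjusted p = 0.0383), from 740 and 793 to 586 and 628. The coactivator Ncoa2 changed by -0.30 in WT (adjusted p = 0.0306), from 2159 and 2231 to 1606, 1813 and 1964, and by -0.52 in AHR KO (adjusted p = 0.0073), from 1890 and 2190 to 1380 and 1466. Nrip1 (RIP140), a coregulator that mostly represses, changed by -0.23 in WT (adjusted p = 0.0182), from 2351 and 2600 to 2030, 2110 and 2193. In each of these cases the FICZ libraries lay below the DMSO libraries without overlap. Several of these calls were lost when 1 library was left out. The WT call was lost for Nr1d2 without WT DMSO 2, WT DMSO 3 or WT FICZ 3 (adjusted p = 0.0796, 0.108 and 0.061), for Ncoa2 without the same libraries (0.15, 0.0947 and 0.0869) and for Nrip1 without WT DMSO 2 (0.175). In AHR KO the call was lost for Nr1d2 in 6 of the 9 fits that left out a library (adjusted p = 0.0552 without WT DMSO 2, 0.0555 without WT DMSO 3, 0.068 without AHR KO FICZ 1, 0.169 without AHR KO FICZ 3, and 0.117 and 0.174 without replicate 1 or 3 of AHR KO DMSO), and for Ncoa2 without AHR KO DMSO 1 (0.0806).

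In AHR KO organoids FICZ raised 4 members, Rxrb, Esrra, Nr2f6 and Nr4a1, and lowered Nr1d2 and Ncoa2, against 10.2% of all genes higher and 9.48% lower. Each of these 6 was also called in WT in the same direction. The median log2 change over the members was -0.05, beside -0.007 over all genes. The calls of Rxra, Rarb, Rarg, Ppard, Nr1h2 and Nrip1 were made in WT alone, but of these only Ppard had a called difference between the responses. Without AHR KO DMSO 1 the count in AHR KO was 2, and without WT FICZ 2 it was 10, where 3.29% and 23.2% of all genes were called.

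Across all genes the change with FICZ went with the GC content of the transcript. From the lowest to the highest of 5 equal bins of genes by GC, the median log2 change climbed from -0.20 to 0.27 in WT and from -0.20 to 0.29 in AHR KO. The members that rose lay at 53.2% (Rarb) to 64.6% (Nr2f6) GC. When a trend in GC and length was subtracted, 8 members were called in WT and 1, Ncoa2, in AHR KO, beside 16.7% and 3.96% of all genes in the same fit. Ppard remained called in WT (0.47, adjusted p = 0.00103), as did Rxrb, Esrra, Rarg, Nr1h2, Nrip1 and Ncoa2, and Nr2c2 was called in this fit but not before it (0.20, adjusted p = 0.0466). With GC alone removed 6 were called, without Nr1h2 and Ncoa2 (17.5% of all genes), and with a replicate block added to the GC and length trend 4, namely Ppard, Rxrb, Esrra and Ncoa2 (13.5% of all genes). Nr2f6, the member with the highest GC, was left with 0.036 in WT and 0.008 in AHR KO (adjusted p = 0.761 and 0.969). Rxra was left with 0.18 (adjusted p = 0.0849), Rarb with 0.53 (0.0696), Nr4a1 with 0.39 (0.0575) and Nr1d2 with -0.17 (0.255). In AHR KO the calls for Rxrb (0.21, adjusted p = 0.206), Esrra (0.20, 0.177), Nr4a1 (0.36, 0.172) and Nr1d2 (-0.18, 0.367) were lost as well. The difference between the Ppard responses was 0.69 after the GC and length trend was removed (adjusted p = 0.00772). Over all alternatives, the lowest WT rises were 0.28 for Rxrb, 0.30 for Esrra, 0.28 for Nr1h2, 0.20 for Rarg and 0.44 for Ppard. The smallest WT falls of Nrip1 and Ncoa2 were -0.13 and -0.22.

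**Figure D3:**
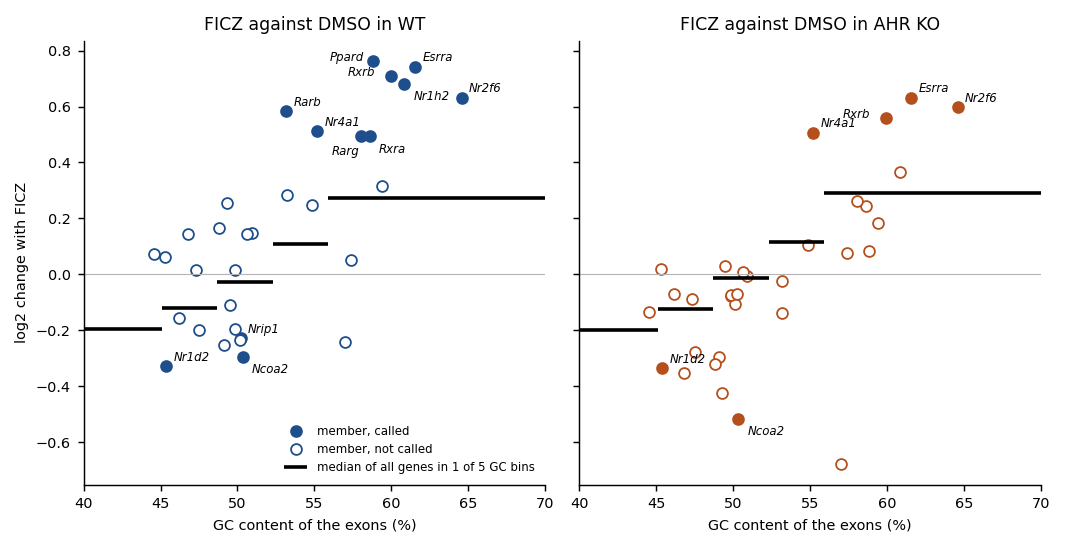
Log2 change with FICZ of the 32 tested members against the GC content of their exons in WT (left) and AHR KO (right), with filled, named points for called changes and black bars for the median of all tested genes in each of 5 bins by GC. The bars climb from -0.20 to 0.27 in WT and from -0.20 to 0.29 in AHR KO, and Ppard lies far above the bar in WT and below it in AHR KO.

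AHR KO was then compared with WT under DMSO, without added ligand. Of the 32 members, 4 were lower in AHR KO and none higher, while 4.83% of all genes were lower and 4.21% higher. The 4 were the vitamin D receptor Vdr, Pparg, the bile acid receptor Nr1h4 and the xenobiotic receptor Nr1i2, all partners of RXR. Other tested partners of RXR, namely Rara, Rarb, Rarg, Ppard, Thra, Thrb, Nr1h2 and Nr1h3, were not called in this comparison. At an unadjusted p under 0.05, limma gave 8 members lower and 0 higher, beside 13.2% and 10.6% of all genes. The median log2 difference was -0.08 over the members and -0.01 over all genes.

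Vdr read 795 and 813 in WT DMSO and 261 and 269 in AHR KO DMSO, a 3.03-fold difference in means and a log2 difference of -1.59 ± 0.16 (SE, adjusted p = 0.000273). Under FICZ it read 786, 998 and 1111 in WT and 253 and 321 in AHR KO, a log2 difference of -1.74 ± 0.14 (adjusted p = 2.76e-05). Every WT library lay above every AHR KO library, by more than the spread within any group. Vdr was not called with FICZ in either genotype, with log2 changes of 0.25 in WT and 0.10 in AHR KO.

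Nr1i2 read 106 and 109 in WT DMSO and 31.3 and 43.9 in AHR KO DMSO, a log2 difference of -1.51 ± 0.23 (adjusted p = 0.00264). With FICZ it read 120, 125 and 150 in WT and 32.3 and 41.1 in AHR KO, a difference of -1.82 ± 0.21 (adjusted p = 0.000189) and the largest among the members. Nr1h4 read 417 and 502 in WT DMSO and 207 and 212 in AHR KO DMSO, a difference of -1.12 ± 0.20 (adjusted p = 0.00754). Under FICZ Nr1h4 read 462, 518 and 539 in WT and 127 and 212 in AHR KO, a difference of -1.61 ± 0.19 (adjusted p = 0.000201). The genotypes did not overlap for either gene. The call for Nr1h4 under DMSO was lost without WT DMSO 3 or without AHR KO DMSO 1 or 3 (adjusted p = 0.0631, 0.0591 and 0.0592).

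Pparg (PPAR-gamma), which is abundant in colon epithelium, differed by less. It read 1362 and 1794 in WT DMSO and 983 and 1146 in AHR KO DMSO, a log2 difference of -0.56 ± 0.14 (adjusted p = 0.0308). Under FICZ it read 1581, 1633 and 1723 in WT and 870 and 1072 in AHR KO, a difference of -0.77 ± 0.12 (adjusted p = 0.00184). The DMSO call was lost without WT DMSO 2, AHR KO DMSO 1 or AHR KO DMSO 3 (adjusted p = 0.204, 0.067 and 0.222). The count of members called under DMSO was 2 without AHR KO DMSO 1 or 3, where 3.55% and 3.05% of all genes were called.

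**Figure D4:**
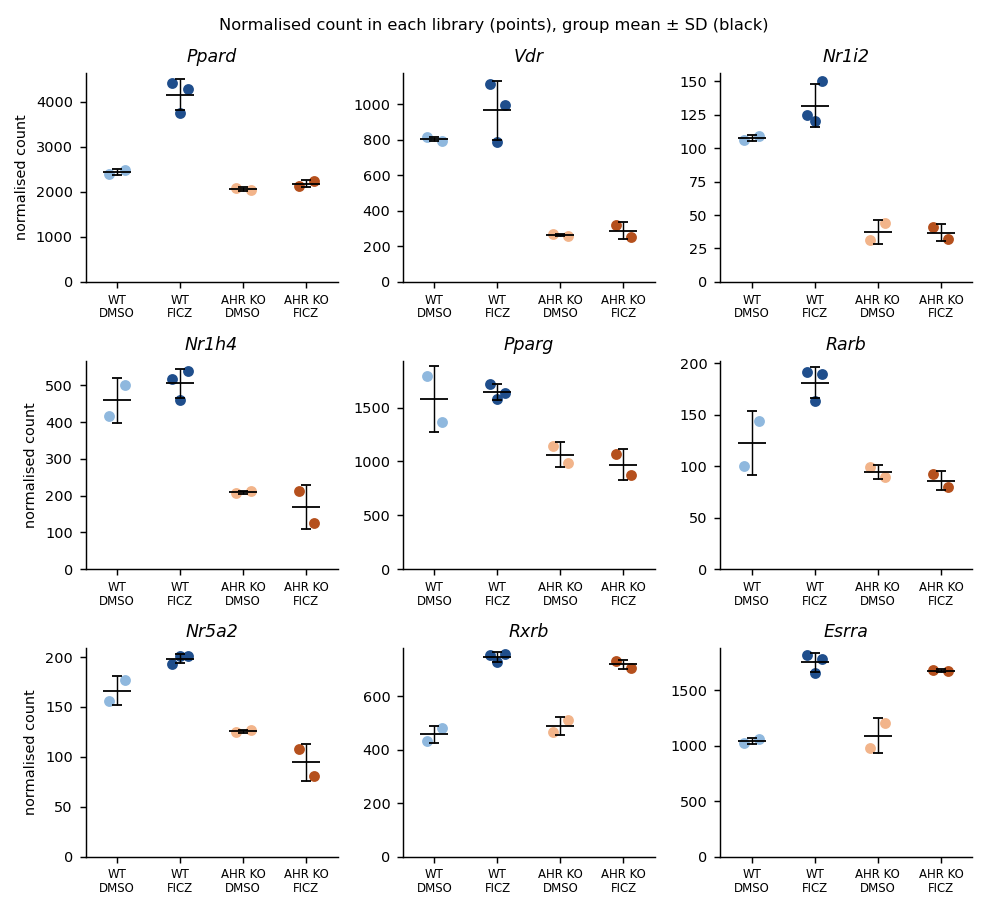
Normalised count in each library (coloured points) with the group mean ± SD (black) for 9 members, each axis starting at 0. The WT and AHR KO libraries of Vdr, Nr1i2, Nr1h4 and Pparg do not overlap, Ppard, Rarb and Nr5a2 are highest in WT FICZ, and Rxrb and Esrra are higher with FICZ in each genotype.

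Under FICZ, 13 of the 32 members were lower in AHR KO and none was higher, while 10.5% of all genes were lower and 9.48% higher. At an unadjusted p under 0.05, limma gave 13 lower and 1 higher, Nrip1, beside 17.8% and 15.8% of all genes. The 13 held the 4 members already lower under DMSO, together with Rxra, Rarb, Rarg, Ppard, Nr3c1, Nr5a2, Nr6a1, Ncor1 and Ncoa2. The median log2 difference was -0.19 over the members and -0.004 over all genes. This comparison uses the same WT FICZ libraries as the comparison of FICZ with DMSO in WT, so the calls of these comparisons are not independent of each other.

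**Figure D5:**
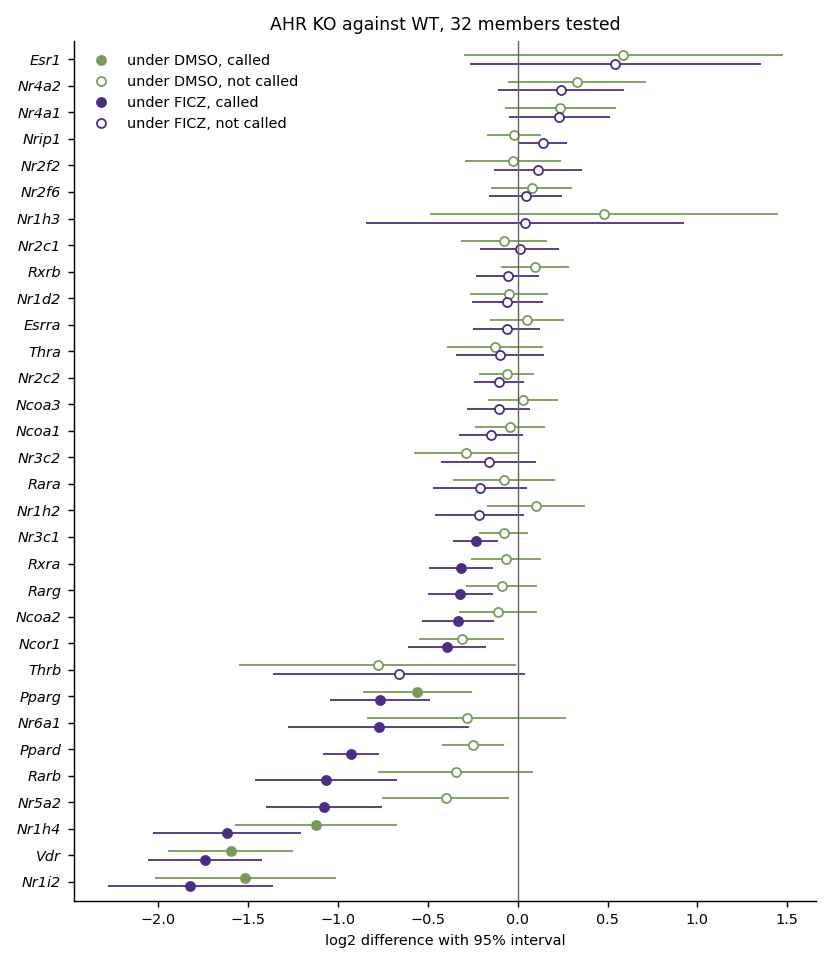
Log2 difference of AHR KO from WT with its 95% interval for the 32 tested members under DMSO (green) and FICZ (purple), with filled points for called differences. All called differences are negative, and Nr1i2, Vdr and Nr1h4 are the lowest under both conditions.

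Ppard differed between AHR KO and WT under FICZ by -0.93 ± 0.07 on the log2 scale (SE, adjusted p = 1.78e-05), and Rarb by -1.07 ± 0.18 (adjusted p = 0.00215). Nr5a2 (LRH-1), a receptor of crypt progenitors that also governs local glucocorticoid synthesis, read 156 and 177 in WT DMSO, 193, 201 and 201 in WT FICZ, 124 and 127 in AHR KO without and 81.2 and 107 with FICZ. Its difference under FICZ was -1.08 ± 0.15 (adjusted p = 0.0006). With FICZ, Nr5a2 lay above its DMSO libraries in WT and below them in AHR KO, but the difference between these responses, 0.68, was not called (adjusted p = 0.398). Rxra differed by -0.31 (adjusted p = 0.0201) and Rarg by -0.32 (adjusted p = 0.0198). Nr6a1, an orphan receptor of germ cells and early embryos, read 148, 212 and 280 in WT FICZ and 108 and 134 in AHR KO FICZ, a difference of -0.77 (adjusted p = 0.0372). Nr3c1, which binds glucocorticoids, read 2393, 2427 and 2548 in WT FICZ and 2001 and 2180 in AHR KO FICZ, a difference of -0.23 (adjusted p = 0.015).

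Of the coregulators, Ncor1 and Ncoa2 were lower in AHR KO under FICZ. Ncor1 read 8392 and 8520 in WT DMSO, 6232, 7864 and 8196 in WT FICZ, 6686 and 6949 in AHR KO DMSO and 5530 and 5716 in AHR KO FICZ. Its difference under FICZ was -0.39 (adjusted p = 0.0178), and under DMSO -0.31 (adjusted p = 0.103), with no overlap between genotypes in either case. Ncoa2 differed by -0.33 under FICZ (adjusted p = 0.0265).

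These smaller differences under FICZ often rested on single libraries. Without WT FICZ 1 the count of members called was 8 (14.8% of all genes), with adjusted p of 0.063 for Rxra, 0.0625 for Rarg, 0.0507 for Ncor1, 0.0774 for Ncoa2 and 0.0882 for Nr6a1. Without WT FICZ 3 the p was 0.0542 for Rxra, 0.0531 for Rarg, 0.0613 for Ncor1 and 0.0953 for Nr6a1. Without AHR KO FICZ 1 it was 0.127 for Rxra, 0.128 for Rarg, 0.0899 for Ncor1, 0.138 for Ncoa2 and 0.196 for Nr6a1, and without AHR KO FICZ 3 it was 0.132 for Nr3c1, 0.0742 for Ncor1, 0.0756 for Ncoa2 and 0.0771 for Nr6a1. The Nr6a1 call was also lost without WT DMSO 2 or 3 (0.052 and 0.0522) and without AHR KO DMSO 1 or 3 (0.0579 and 0.0581). Ppard, Rarb, Pparg, Nr5a2, Vdr, Nr1h4 and Nr1i2 were called in every one of these fits.

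Some epithelial values moved with genotype beside these differences. Of the 8 epithelial markers 2, Epcam and Elf3, were lower in AHR KO DMSO, with log2 differences of -0.43 and -0.40 (adjusted p = 0.00846 and 0.0133). None was higher, where 4.83% of all genes were lower and 4.21% higher. Under FICZ Epcam and Elf3 differed by -0.46 and -0.42 (adjusted p = 0.00145 and 0.00291), and Krt18, a keratin, was higher in AHR KO by 0.38 (0.00575). In that comparison 10.5% of all genes were lower and 9.48% higher. Elf3 also rose by 0.27 with FICZ in WT (adjusted p = 0.0209), the only call among the 8 markers there, beside 15.1% of all genes higher and 15.7% lower. In AHR KO 1 of the 8 rose with FICZ and none fell, beside 10.2% and 9.48% of all genes. The 2 tuft cell markers summed to 33.2 and 53.0 in WT DMSO and 6.69 and 7.90 in AHR KO DMSO, and to 12.8 to 44.8 in WT FICZ and 14.2 and 19.4 in AHR KO FICZ. Goblet markers summed to 153 and 347 in WT DMSO, 109 to 513 in WT FICZ, 78.2 and 124 in AHR KO DMSO and 153 and 170 in AHR KO FICZ. Enteroendocrine markers summed to 7.01 to 25.2 in the 9 libraries. The part of such shifts in the member values was not tested.

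The 12 tested members that were called in no comparison were Rara, Thra, Thrb, Esr1, Nr1h3, Nr2c1, Nr2c2, Nr2f2, Nr3c2, Nr4a2, Ncoa1 and Ncoa3. Several were measured tightly. Nr2c2 (TR4), an orphan receptor, read 1290 to 1509 over the 9 libraries, and its change with FICZ in WT had a 95% interval of -0.08 to 0.20. Ncoa3 read 1328 to 1661 and Ncoa1 643 to 758, with FICZ changes in WT of 0.15 (-0.03 to 0.32) and 0.02 (-0.16 to 0.19). Thra, the more abundant thyroid hormone receptor, read 288 to 376, with an interval of -0.19 to 0.30. Others were measured too loosely to set narrow limits: Esr1 read 25.9 to 73.8, with an interval of -1.06 to 0.56 for FICZ in WT, and Thrb 25.1 to 79.3, with -0.90 to 0.51. Nr3c2 (the mineralocorticoid receptor) read 786 and 814 in WT DMSO and 656 to 719 in WT FICZ, which did not overlap, but its change of -0.23 was not called (adjusted p = 0.162).

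The rest of the family was read from a list of 18 other nuclear receptors, of which 6 passed the filter. Hnf4a, a receptor of differentiated gut epithelium, read 11830 and 12520 in WT DMSO, 14480, 15650 and 15890 in WT FICZ, 8594 in both AHR KO DMSO libraries and 7550 and 9382 in AHR KO FICZ. It was lower in AHR KO, with log2 differences of -0.50 under DMSO (adjusted p = 0.00759) and -0.86 under FICZ (adjusted p = 6.7e-05), and rose by 0.33 with FICZ in WT (adjusted p = 0.0136). That rise was 0.15 after the GC and length trend was removed (adjusted p = 0.258), and its adjusted p was 0.0968 without WT DMSO 3. Without WT DMSO 2, AHR KO DMSO 1 or AHR KO DMSO 3 the adjusted p of its difference under DMSO was 0.0633, 0.0589 and 0.0641. Esrrg, a relative of Esrra, read 11.4, 30.1 and 41.5 in WT FICZ, 6.15 and 7.37 in WT DMSO and 0 and 0.634 in AHR KO DMSO, and was listed at 0 in both AHR KO FICZ libraries, which is at least 9.22-fold lower than WT FICZ at a floor of 3 counts per library. It averaged 10.8 and so passed the filter only through WT FICZ, and no test of it is given for that reason. Hnf4g fell by 0.48 with FICZ in WT (adjusted p = 0.0203), a call lost after the GC and length trend was removed (0.167), without WT DMSO 2 or 3 (0.0682 and 0.124) and without WT FICZ 1 (0.0556). That call was also lost with a replicate block by organoid line (0.0749).

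The 19 other coregulators followed here passed the filter, of which 4 rose and 3 fell with FICZ in WT, where 15.1% of all genes rose and 15.7% fell. In AHR KO 1 rose and 1 fell, where 10.2% of all genes rose and 9.48% fell. Ppargc1b, a coactivator of ERR receptors, read 530 and 575 in WT DMSO and 716, 818 and 856 in WT FICZ (0.53, adjusted p = 0.00207), and was lower in AHR KO under FICZ (-0.54, adjusted p = 0.00199). Its relative Ppargc1a, a coactivator of mitochondrial gene expression that was chosen after its values were seen, read 331 and 380 in WT DMSO and 179, 214 and 223 in WT FICZ, a change of -0.79 (adjusted p = 0.00848) that was not called without WT DMSO 2 (0.0748). Nsd1 rose by 0.24 with FICZ in WT (adjusted p = 0.00498). Ncoa7 fell by 0.46 in WT (adjusted p = 0.00535), a call lost after the GC and length trend was removed (0.0802) and without WT DMSO 3 (0.0555). Tbl1x, a subunit of the NCoR corepressor complex, read 5205 and 5209 in WT DMSO and 4440, 4489 and 4618 in WT FICZ, and fell by 0.21 (adjusted p = 0.00653). It fell by 0.18 in AHR KO (adjusted p = 0.0307), and both calls were lost after the GC and length trend was removed (0.074 and 0.422), the first also without WT DMSO 2 (0.0512) and the second without any 1 of the AHR KO libraries (0.0749 to 0.146) or WT DMSO libraries (0.0515 and 0.0516). The AHR KO call of Tbl1x was also lost with a replicate block (0.0587, or 0.0622 by organoid line).

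Target genes and ligand-handling genes of the receptors were read from 6 further lists. Among 8 tested PXR and CAR targets, 5 were lower in AHR KO under DMSO and 6 under FICZ, beside 4.83% and 10.5% of all genes, with none higher by limma in either (0 higher also at an unadjusted p under 0.05, where 10.6% and 15.8% of all genes were higher). With FICZ in WT, 4 of the 8 rose and 1 fell, where 15.1% of all genes rose and 15.7% fell. In AHR KO 2 rose and 1 fell, where 10.2% of all genes rose and 9.48% fell. After the GC and length trend was removed the rise of Por in WT was 0.13 (adjusted p = 0.375) and the fall of Abcb1a -0.21 (0.0721), and neither was called. The rise of Alas1 in AHR KO was not called in that fit either (0.18, adjusted p = 0.214). That rise was also lost without any 1 of the AHR KO libraries (0.1 to 0.157), without WT FICZ 3 (0.0549) and without a filter on low values (0.0644). The Por call was also lost without WT DMSO 3, WT FICZ 1 or WT FICZ 3 (0.198, 0.0559 and 0.076) and that of Abcb1a without WT DMSO 3 (0.07). The median log2 difference under FICZ was -0.72 over the list and -0.004 over all genes. Abcb1a, a drug efflux pump, read 2580 and 2711 in WT DMSO and 1467 and 1528 in AHR KO DMSO, a difference of -0.82 (adjusted p = 0.000193). Cyp2c55, an epithelial cytochrome P450, read 784 and 1083 in WT DMSO and 320 and 405 in AHR KO DMSO, a difference of -1.35 (adjusted p = 0.0197), and -2.29 under FICZ (adjusted p = 0.000261). Its DMSO call was lost without WT DMSO 2 (adjusted p = 0.141), AHR KO DMSO 1 (0.135) or AHR KO DMSO 3 (0.0736). The DMSO calls of Por and Alas1 were lost without AHR KO DMSO 3 as well (0.0907 and 0.122) and without WT DMSO 2 (0.0707 and 0.116), and that of Alas1 without AHR KO DMSO 1 (0.096) and with a replicate block (0.0598). Por, the reductase that supplies P450 enzymes, and Alas1, the enzyme that starts haem synthesis, differed by -0.72 and -0.67 under FICZ (adjusted p = 0.000236 and 0.000143). Nr1i2 itself was lower in the same libraries, and whether this list follows it was not tested.

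Of 16 genes of retinoid metabolism and RAR signalling, 10 were tested. Under FICZ 3 were higher and 3 lower in AHR KO, where 9.48% of all genes were higher and 10.5% lower. Stra6, the membrane receptor for the retinol carrier, read 519 and 821 in WT DMSO and 2008 and 2015 in AHR KO DMSO, a difference of 1.62 (adjusted p = 0.000676), and 1.93 under FICZ (adjusted p = 4.02e-05). Aldh1a1, which makes retinoic acid, was higher in AHR KO by 1.13 under FICZ (adjusted p = 0.00225), and Tgm2, a retinoic acid target, by 1.31 (adjusted p = 0.00111). Dhrs3, which returns retinal to retinol and is induced by retinoic acid, was lower in AHR KO under FICZ (-0.92, adjusted p = 0.00155). With FICZ in WT, 2 genes of the list rose and 2 fell, beside 15.1% and 15.7% of all genes. Aldh1a1 read 301 and 344 in WT DMSO and 171, 232 and 255 in WT FICZ, a change of -0.57 (adjusted p = 0.0438) that was lost after the GC and length trend was removed (0.238) and without any 1 of the DMSO libraries, WT FICZ 2 or WT FICZ 3 (0.0513 to 0.216). It was also lost with a replicate block (0.0845), with only the groups compared fitted (0.0533) and without a filter on low values (0.0748). Dhrs3 rose by 0.54 with FICZ in WT (adjusted p = 0.0192), a call lost without WT DMSO 2 (0.0736), WT DMSO 3 (0.105), WT FICZ 1 (0.0578) or WT FICZ 3 (0.065). The Dhrs3 call was also lost with a replicate block (0.0502, or 0.0678 by organoid line).

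Of 11 tested PPAR targets, 1 was higher and 5 were lower in AHR KO under FICZ, beside 9.48% and 10.5% of all genes. Those lower were genes of fatty acid oxidation, among them Acadm (-0.63, adjusted p = 0.00136), Cpt2 (-0.52, 0.00234) and Cpt1a (-0.40, 0.00126). Angptl4, a secreted inhibitor of lipoprotein lipase, went the other way, from 27.6, 38.8 and 43.2 in WT FICZ to 106 and 139 in AHR KO FICZ (1.73, adjusted p = 0.001). With FICZ in WT, none of the 11 was called by limma, beside 15.1% of all genes higher and 15.7% lower. At an unadjusted p under 0.05, 3 were higher and 1 lower, beside 20.6% and 21.5% of all genes.

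Fgf15, a hormone that FXR induces in the ileum, stood out among the 9 tested LXR and FXR targets. It read 108 and 112 in WT DMSO, 217, 259 and 269 in WT FICZ, 98.9 and 104 in AHR KO DMSO and 96.5 and 105 in AHR KO FICZ. It rose with FICZ in WT (95% interval 0.86 to 1.47 on the log2 scale, adjusted p = 0.000408) and had a change of -0.01 in AHR KO, and the difference of 1.18 between these was called (adjusted p = 0.0434). That call was lost in every fit that left out a library, with adjusted p from 0.0506 to 0.209, with a replicate block (0.108, or 0.146 by organoid line) and without a filter on low values (0.0858). Nr1h4, which encodes FXR, was not called with FICZ in WT (log2 change 0.14). Under FICZ, Fgf15 was lower in AHR KO by a log2 difference of -1.29 (adjusted p = 0.000126), a call that held under every alternative. With FICZ in WT 2 of the 9 rose and none fell, beside 15.1% and 15.7% of all genes (2 and 0 also at an unadjusted p under 0.05, beside 20.6% and 21.5%). Apart from Fgf15 the list had 1 call, that of Lpcat3, with a rise of 0.24 with FICZ in WT (adjusted p = 0.0467) that was lost after the GC and length trend was removed (0.15) and without WT DMSO 2 or 3, AHR KO DMSO 1 or 3 and WT FICZ 1 or 3 (0.0673 to 0.172). The Lpcat3 call was also lost with a replicate block (0.0918), with only the groups compared fitted (0.0637) and without a filter on low values (0.0851).

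Of 5 VDR targets only 2 were expressed enough to test. Neither was called by limma between AHR KO and WT, under DMSO or under FICZ (unadjusted p under 0.05 for 1 lower in AHR KO under DMSO and 1 higher under FICZ, beside 13.2% and 15.8% of all genes). With 2 genes and at most 10.5% of all genes called in each direction in these comparisons, that count says little about the list. Atp2b1, a calcium pump, fell with FICZ in each genotype, with log2 changes of -0.30 in WT and -0.25 in AHR KO (adjusted p = 0.00178 and 0.012). Both calls were lost after the GC and length trend was removed (adjusted p = 0.0603 and 0.345), and the AHR KO call also without AHR KO DMSO 1 or AHR KO FICZ 3 (0.104 and 0.0724). Of 9 tested glucocorticoid and mineralocorticoid targets, 4 were lower and none higher in AHR KO under FICZ, beside 10.5% and 9.48% of all genes. These were Zfp36, an mRNA decay factor (-0.47, adjusted p = 0.00294), Klf9 (-0.54, 0.000688), Scnn1a, a subunit of the epithelial sodium channel (-0.41, 0.0046), and Hsd11b2, which inactivates glucocorticoids (-1.997, 0.00598). Hsd11b2 read 24.6, 37.9 and 49.3 in WT FICZ and 7.52 and 9.02 in AHR KO FICZ. At an unadjusted p under 0.05, 7 of this list were lower and 0 higher, beside 17.8% and 15.8% of all genes. With FICZ in WT 4 of the 9 rose and 1 fell, beside 15.1% and 15.7% of all genes, from the same WT FICZ libraries. After the GC and length trend was removed, the rises of Klf9 (0.23, adjusted p = 0.0525) and Scnn1a (0.09, 0.418) were not called. The Klf9 rise was also lost without any 1 of the DMSO libraries (0.0638 to 0.228) and without WT FICZ 1 or 3 (0.121 and 0.125). A replicate block (0.105), only the groups compared (0.0669) and no filter on low values (0.0725) lost it as well. The Scnn1a rise was lost without WT DMSO 2 or 3 (0.0897 and 0.0524). In AHR KO 1 rose with FICZ, beside 10.2% of all genes, and under DMSO 1 was lower in AHR KO, beside 4.83%. Both calls were of Zfp36. The rise was lost without any 1 of the AHR KO libraries (adjusted p = 0.0668 to 0.181). It was also lost after the GC and length trend was removed (0.369) and without a filter on low values (0.0626). The difference under DMSO was lost without any 1 of the DMSO libraries (0.0807 to 0.252) and with TMM scaling (0.0539). Leaving out AHR KO FICZ 1 or 3 or WT FICZ 3 also lost it (0.0535 to 0.0624). So did a pseudocount of 0.1 (0.0509) and no filter (0.0864).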

How the data were processed

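RNA-seq libraries (TruSeq Stranded with RiboZero Gold) were made from 9 mouse colon organoid cultures in 4 groups. The authors deposited a table of normalised counts per Ensembl gene, used here as a signal, with values of 0 or more that are not whole numbers. The submitters' processing notes name STAR 2.5.2a, RSEM 1.2.31, DESeq2 1.16.1 and the build GRCm38, while the methods of the study name summarizeOverlaps and DESeq2. Which of these scaled the table, and the annotation behind it, are not given in the sources used here. Whole reads were not recovered from the values, so no count model was run and no counting interval is given per value.

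Identifiers were matched to GENCODE M21 (48435 of 48795, 99.3%), and every column of the table matched a sample. Values were transformed as log2(value + 1), so fold changes of low genes are understated, and the 12741 genes that averaged at least 10 across the 9 libraries were tested with limma 3.58.1 in R 4.3.3, with 1 coefficient per group and a mean-variance trend. Tests were two-sided, with Benjamini-Hochberg adjustment over all genes tested and a threshold of 0.05. The 5 comparisons were FICZ against DMSO in each genotype, the difference between those responses, and AHR KO against WT under DMSO and under FICZ. The procedure was tested on simulated data with known changes.

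The text names all 36 members, Ahr, Cyp1a1 and Cyp1b1 as checks of the labels, and, from each of 8 lists with 111 genes in all, up to 4 called genes with the lowest adjusted p. Ppargc1a and the marker genes Epcam, Elf3, Krt18 and Cd68 are named beside these and were chosen after their values were seen. An item that had been on these lists is not reported here. The members and lists were chosen with earlier results of these data known, so their choice is not independent of the data. Alternatives were the pseudocount, the filter, TMM scaling, the groups fitted, a replicate block, removal of a trend in GC content and length (a spline with 5 degrees of freedom, for 99.7% of the tested genes), and leaving out each library. Removal of GC alone, and with the longest transcript's length, was added after the data were seen. Promoter sequences were taken from RefSeq (GRCm38.p6).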

Additional observations from a re-analysis of the deposited data

Results flagged for a closer look

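The response of Ppard to FICZ differed between genotypes in a test of the difference itself. The log2 change was higher in WT than in AHR KO by 0.68 (limma, adjusted p = 0.0206), and each of the 3 libraries of WT FICZ exceeded the DMSO libraries of WT. Fgf15, a target of FXR outside the family, had a log2 change higher in WT by 1.18 (1.175 before rounding, adjusted p = 0.0434). Both calls lost significance when single libraries were left out, as given beside their values, and that of Fgf15 also with a replicate block (adjusted p = 0.108). No explanation of either difference was tested.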

How the results depend on the processing

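Of 36 called member changes, 12 were called under every alternative. These were Vdr and Nr1i2 in AHR KO against WT under both conditions, Ppard, Pparg, Nr1h4, Nr5a2 and Rarb under FICZ, and Ppard, Rxrb and Esrra with FICZ in WT. Of 702 alternative values of the 36, 585 stayed called, 114 were no longer called and 3 changed sign. The reversals were those of Nr2f6, with -0.011 in AHR KO when GC alone was removed, and -0.142 in WT and -0.137 in AHR KO when GC and the longest transcript's length were removed. Of 1028 alternative values of 53 called changes of list genes, 848 stayed called, 180 did not and 0 changed sign. The 53 include the difference of Esrrg between AHR KO and WT under FICZ. Esrrg passed the filter only through WT FICZ, so its values in these counts say nothing about how stable the calls are.

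With GC and length removed, 1 member was called with FICZ in AHR KO; with GC alone 1, and with the longest transcript 2, beside 3.96%, 4.25% and 5.42% of all genes. In WT, 6 were called with GC alone (17.5% of all genes). The members called with a replicate block numbered 12 in WT, 5 in AHR KO, 1 for the difference between responses, 6 for genotype under DMSO and 14 under FICZ, beside 26.8%, 17.6%, 0.306%, 8.26% and 19.3% of all genes, and with the block and the GC and length trend 4 in WT and 1 in AHR KO (13.5% and 2.87%). Same-numbered libraries correlated at 0.035 to 0.05 across genes after group means were removed, which is too weak to show pairing. When 1 library was left out, the count was 7 to 14 for FICZ in WT (7 without WT DMSO 2), 2 to 10 in AHR KO (2 without AHR KO DMSO 1, 10 without WT FICZ 2), 0 to 1 for the difference between responses, 2 to 6 for genotype under DMSO (2 without AHR KO DMSO 1 or 3) and 8 to 14 under FICZ (8 without WT FICZ 1). In the same fits 15.6% to 32.5%, 3.29% to 23.2%, 0.18% to 0.612%, 3.05% to 11.6% and 10.4% to 24.3% of all genes were called. With 2 or 3 libraries a group, a difference that was not called is not shown to be absent.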
